A study of Mus musculus with 33 samples.

Results

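The sites described here are regions where p53 binding was called after doxorubicin in each of 3 lymphomas, and after (-)-Nutlin in none of the same 3. Overlapping peaks of the 26 lists, by 1 bp or more, were joined, which gave 18927 regions. Of these, 446 regions (2.36%) had a peak in all 3 doxorubicin lists, in no (-)-Nutlin list and in no ethanol list. The sites were chosen by these peak calls, which are therefore a description and no test of a difference between the drugs. Dropping the condition on ethanol lists left the number at 446.

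The assay was ChIP-seq, the sequencing of DNA fragments bound by p53, with the CM5p antibody, in lymph node B cells of C57/Bl6 mice carrying Eµ-myc, a transgene that drives the Myc oncogene in B cells. Tumours 5, 6 and 7 were Arf-/- Trp53+/+ lymphomas, with intact p53 and without Arf, an inhibitor of Mdm2. Cells of each were studied untreated and after 3 h with water (1 volume per 1000), DMSO (0.5 volumes per 1000), 5 µM (+)-Nutlin, 5 µM (-)-Nutlin or 1 µM doxorubicin. Tumours 1 to 4 were Trp53(KI/delta) lymphomas, given ethanol (EtOH, 1 volume per 1000) or 100 nM OHT (4-hydroxytamoxifen, which switches on the knock-in form of p53) for 2 h. All groups share Eµ-myc, each list comes from 1 tumour, and the lymph node cells were not purified by type. Peak positions cannot show whether other cell types were present.

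p53 is a transcription factor that binds DNA as a tetramer, at short paired sequence elements, and drives genes of cell cycle arrest, apoptosis, DNA repair and metabolism. Mdm2, itself a p53 target, binds p53, masks its activation domain and marks it for degradation. (-)-Nutlin occupies the pocket of Mdm2 that holds p53, so that p53 accumulates without DNA damage, and (+)-Nutlin is its weakly active mirror image. Doxorubicin traps topoisomerase II on DNA, and the breaks that follow activate kinases that modify both p53 and Mdm2. Coordinates are on the mouse build mm9 and are printed as counted from 1, on the assumption that the lists, which have no header, count starts from 0. Genes, motifs and base sequence at the sites were not analysed here, since the annotation and promoter sequences at hand are on another build.

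The lists carry positions alone, with no height, score or p-value, and the read depth behind them is unknown, so a region without a peak was not called, which does not show that p53 was absent. List length was 8250 to 11346 peaks for doxorubicin, 5617 to 10674 for (-)-Nutlin, 3597 to 10084 for OHT, 707 to 2696 for the 12 untreated, water, DMSO and (+)-Nutlin lists, and 116 to 742 for EtOH. Lists also differed in peak width. The smallest peak measured 278 to 391 bp in 14 lists, among them all doxorubicin, (-)-Nutlin and OHT lists and all lists of tumour 5. In the other 12 lists, which comprise the EtOH lists and the control and (+)-Nutlin lists of tumours 6 and 7, it was 52 to 54 bp. The absence of a site from a narrow list and the kind of that list cannot be told apart.

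Across tumours, the sites were a small part of what doxorubicin showed in any 1 of them. In tumour 5, 2172 of 11227 doxorubicin regions (19.3%) had no peak in the (-)-Nutlin list of that tumour. The number was 3728 of 8181 (45.6%) in tumour 6 and 4373 of 9462 (46.2%) in tumour 7. The 446 sites make up 20.5% of that number in tumour 5, 10.2% in tumour 7 and a share between these in tumour 6. Most regions that 1 tumour called after doxorubicin and not after (-)-Nutlin thus did not recur in both of the other tumours. Recurrence in only 1 other tumour is not counted in these shares. The reverse difference, (-)-Nutlin without doxorubicin, held 1310 regions in tumour 5, 6087 in tumour 6 and 497 in tumour 7. Only tumour 6 had more regions in this reverse direction, and its doxorubicin list was the shortest of the 3 while its (-)-Nutlin list was the longest. Called in all 3 (-)-Nutlin lists and in no doxorubicin or EtOH list were 37 regions (0.195%).

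The number of sites depended on which tumour was required to show them. Without tumour 5 the same rule gave 1567 sites, without tumour 6 829 and without tumour 7 545. The reverse count moved from 37 to 334, 56 and 618 without tumours 5, 6 and 7, so that without tumour 7 it exceeded the count of doxorubicin sites. The (-)-Nutlin list of tumour 7 was the shortest of the 6. When the doxorubicin and (-)-Nutlin lists of each tumour were cut to the same number of their widest peaks, 299 doxorubicin sites stood against 83 in the reverse direction. With all 6 lists cut to the shortest, 224 doxorubicin sites were left.

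Sites at the edge of the rule showed how (-)-Nutlin lists dropped out. Of the 4278 regions in all 3 doxorubicin lists and no EtOH list, 2685 (62.8%) had a peak in all 3 (-)-Nutlin lists, 688 (16.1%) in 2, 459 (10.7%) in 1 and 446 (10.4%) in none. Where a single (-)-Nutlin list had a peak, it was that of tumour 5 in 356 regions, of tumour 6 in 91 and of tumour 7 in 12. Just outside on the other side lay 1007 regions with a peak in 2 doxorubicin lists and no (-)-Nutlin list, of which tumour 5 held 273, tumour 6 held 821 and tumour 7 held 920. Tumour 5 was therefore the tumour that most often kept a region out, either by a (-)-Nutlin peak or by the lack of a doxorubicin peak.

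Few sites had a (-)-Nutlin peak within 1 kb. The rule itself bars overlap, and no distance for regions placed at random was computed. From the edge of a site to the nearest (-)-Nutlin peak of any tumour, the median distance was 41.6 kb, the quartiles were 13.8 and 118.8 kb, and the farthest lay at 1463 kb. Within 5 kb of such a peak were 51 sites (11.4%), within 1 kb 10 and within 500 bp 6. Among the 1007 regions in 2 doxorubicin lists and no (-)-Nutlin list the median was 31.9 kb, and among the 3071 regions in 1 such list it was 25.8 kb. For the 37 regions of the reverse direction, the nearest doxorubicin peak lay at a median of 12.6 kb. For 440 of the 446 sites, no (-)-Nutlin peak of any tumour lay within 500 bp.

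**Figure D1:**
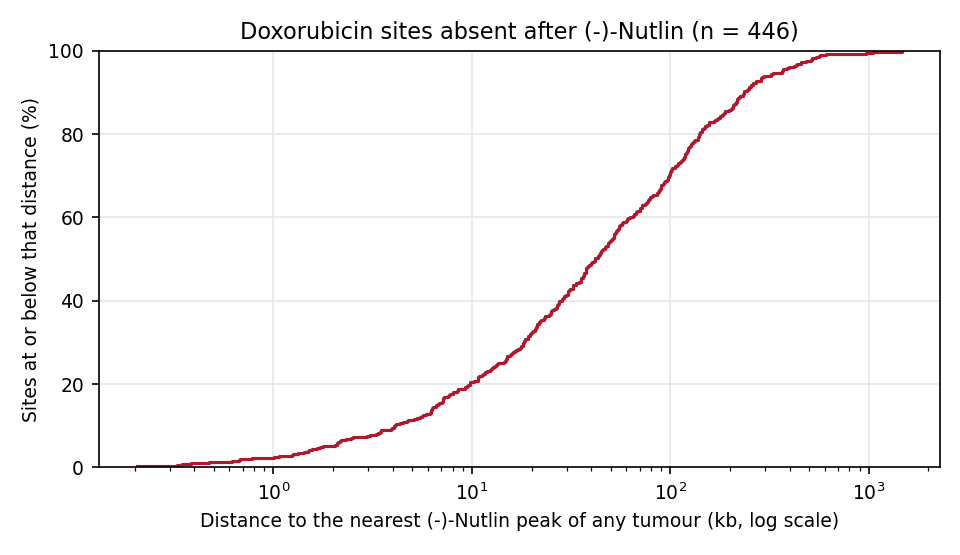
Cumulative share of the 446 doxorubicin sites absent after (-)-Nutlin (y axis, %) by distance in kb to the nearest (-)-Nutlin peak of any of the 3 tumours (x axis, log scale). The curve passes the median at 41.6 kb, and 6 sites lie within 500 bp.

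In the doxorubicin lists the sites had peaks of middling width, which differed by tumour. In tumour 5 their widths ran from 314 to 774 bp with a median of 424.5 bp, and the median site stood at the percentile 32.8 of all peaks of the list ranked by width. In tumour 6 the widths ran from 314 to 1610 bp with a median of 646.5 bp, at the percentile 65.6. In tumour 7 they ran from 375 to 1010 bp with a median of 568.5 bp, at the percentile 53.2. In each tumour the narrowest site was as narrow as the smallest peak of the list. Among the widest 10% of peaks of a list were 0 sites in tumour 5, 10 in tumour 6 and 1 in tumour 7. In tumour 6, 341 of 446 sites (76.5%) were wider than the median peak, against 117 (26.2%) in tumour 5 and 242 (54.3%) in tumour 7. Sites are ranked by width below because the lists give no height, and how width relates to peak strength was not tested.

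Regions called in all lists of both drugs were wider in tumours 5 and 7, with median percentiles of 81.3 and 80.5. In tumour 6 their median percentile was 71.3, close to the 65.6 of the doxorubicin sites. For 297 of the 446 sites (66.6%) the highest of the 3 percentiles was that of tumour 6, compared with 464 of 2685 regions (17.3%) called after both drugs. Widths of one site also varied between tumours. Across the 446 sites, Spearman's rho between widths was 0.053 for tumours 5 and 6, 0.28 for tumours 5 and 7 and 0.38 for tumours 6 and 7. Across the 2685 regions of both drugs it was 0.69, 0.78 and 0.82. These are descriptions across regions of the same libraries, and the widths of the 446 sites spanned less, in tumour 5 up to 774 bp against 3070 bp.

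**Figure D2:**
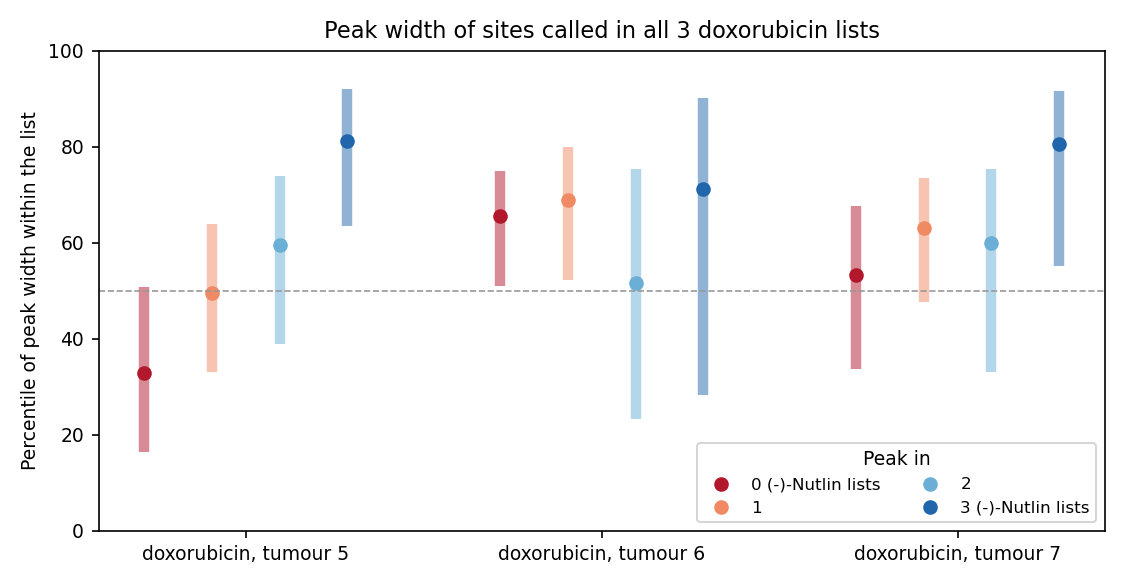
Percentile of peak width within each doxorubicin list (y axis) for regions called in all 3 doxorubicin lists, split by the number of (-)-Nutlin lists with a peak (points, medians, and bars, lower to upper quartile). Regions without a (-)-Nutlin peak have medians of 32.8, 65.6 and 53.2 in tumours 5, 6 and 7, and regions with 3 have 81.3, 71.3 and 80.5.

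The sites with the widest doxorubicin peaks are described first. The first by mean percentile was on chromosome 4 from 106619865 to 106621216, and had peaks of 756, 1352 and 856 bp in tumours 5, 6 and 7. Its nearest (-)-Nutlin peak was 36694 bp away, and it had no peak in any OHT, control or (+)-Nutlin list. The next was on chromosome 8 from 82443884 to 82445105, and had peaks of 761, 1222 and 732 bp, and was likewise called after doxorubicin alone, 208002 bp from a (-)-Nutlin peak. The third, on chromosome 4 from 124794469 to 124795607, lay 6286 bp from such a peak, and the next, on chromosome 5 from 32548339 to 32549297, lay 6130 bp from one. The former had peaks of 618, 1087 and 1010 bp after doxorubicin, and of 987 and 847 bp in the OHT lists of tumours 1 and 2. The latter had peaks of 744, 959 and 818 bp after doxorubicin and 1 of 464 bp in the OHT list of tumour 1.

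Next in rank came a site on chromosome 17 from 15783571 to 15784564, with peaks of 519, 988 and 984 bp and none in any other list. A site on chromosome 1 from 166179337 to 166180371 had peaks of 690, 978 and 637 bp after doxorubicin and 1 of 383 bp in OHT tumour 3. On chromosome 10 from 110348343 to 110349140, where the 3 doxorubicin peaks of 697, 691 and 777 bp were the most alike of these, OHT tumour 1 had a peak of 386 bp. The site on chromosome 11 from 107330946 to 107332104 was called after doxorubicin alone, at 532 to 1159 bp. So was that on chromosome 1 from 36951169 to 36952090, at 588 to 922 bp. Another, on chromosome 8 from 131019905 to 131020835, had doxorubicin peaks of 575, 931 and 757 bp and a peak of 368 bp after water in tumour 5. In 9 of these 10 sites tumour 6 had the widest of the 3 peaks. At the other end, a site on chromosome 5 from 108297981 to 108298958 had doxorubicin peaks of 333 to 412 bp. A pair on chromosome 3 had peaks of 345 to 391 bp (136373398 to 136373792) and of 335 to 413 bp (21946065 to 21946477). The site on chromosome 5 had a peak of 867 bp in the OHT list of tumour 3, which accounts for most of its merged length of 978 bp.

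OHT lists, which had no part in the choice, held few of the sites. The OHT list of tumour 1 had a peak in 60 of the 446 (13.5%), that of tumour 2 in 37 (8.30%), that of tumour 3 in 38 (8.52%) and that of tumour 4 in 12 (2.69%). The mean was 8.24% ± 4.40 (SD, n = 4). In the same 4 lists, the 2685 regions called after both drugs had a peak in 64.1%, 48.5%, 73.2% and 58.4% of cases, and all 18927 regions in 21.4%, 18.8%, 52.8% and 50.9%. In each OHT list the share of the sites was below that of both sets. Low shares were not particular to the sites. The 1007 regions in 2 doxorubicin lists and no (-)-Nutlin or EtOH list had a peak in 6.75%, 4.57%, 9.04% and 5.26%. The sites stood above these regions in OHT tumours 1 and 2 and below them in tumours 3 and 4. No p-value is given, because the sites were chosen with results of these data known. The median width of the regions of both drugs was larger in all 3 doxorubicin lists, although in tumour 6 fewer of them exceeded the median peak (60.3% against 76.5% of the sites). The part of width in the difference between the sites and the regions of both drugs was not tested.

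The order of the OHT lists did not follow their length. Tumours 1 and 2, with 4102 and 3597 peaks, held 60 and 37 of the sites, while tumour 4, with 9738 peaks, held 12. Sites took 1.46% of the peaks of OHT tumour 1, 1.03% of those of tumour 2, 0.377% of those of tumour 3 and 0.123% of those of tumour 4. This order depended on how the sites were chosen, and the cause was not tested. When sites were chosen without tumour 6, the OHT lists of tumours 3 and 4 had a peak in 27.0% and 19.7% of 829 sites, above tumours 1 and 2 with 14.7% and 11.9%.

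**Figure D3:**
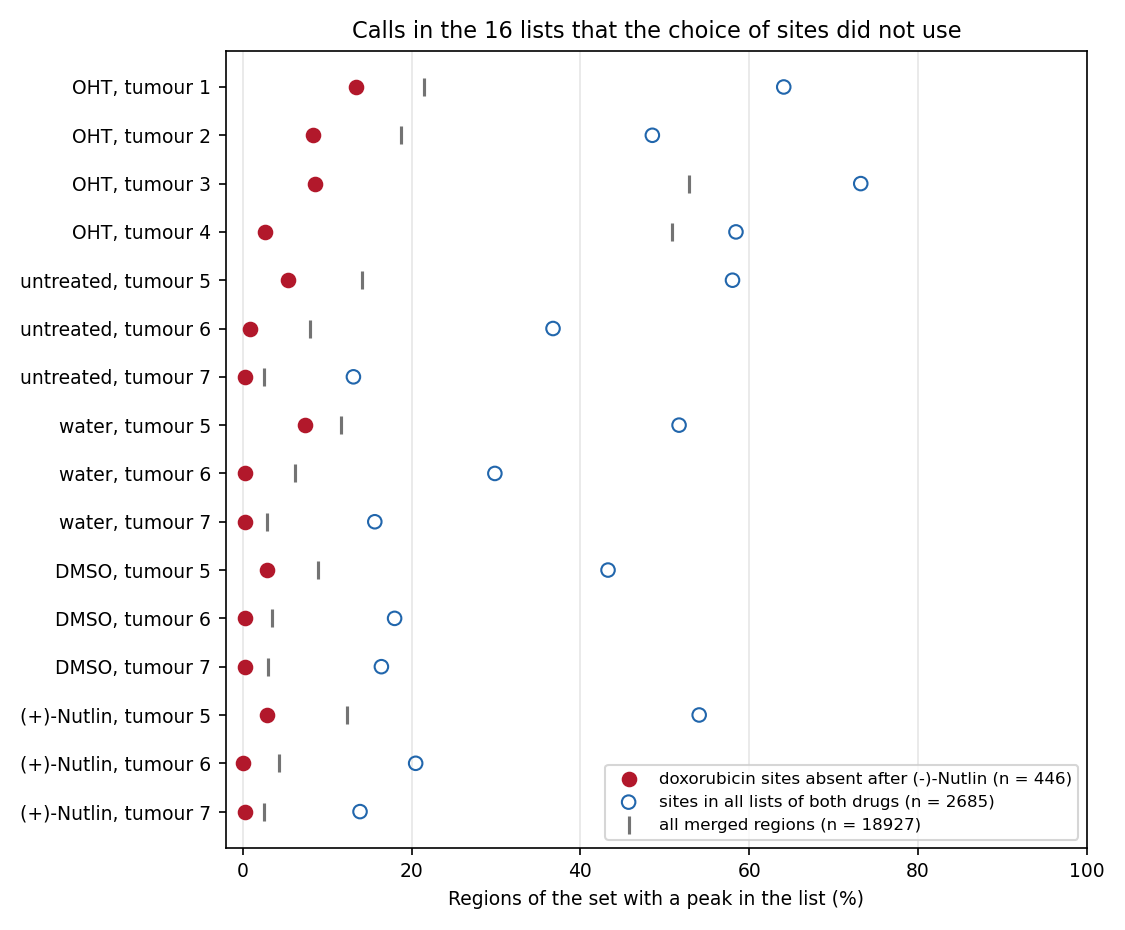
Share of regions with a peak (x axis, %) in each of the 16 OHT, untreated, water, DMSO and (+)-Nutlin lists (y axis), for the 446 doxorubicin sites (filled), the 2685 regions of both drugs (open) and all 18927 regions (grey ticks). The filled points run from 0% to 13.5% and lie left of the open points and the ticks in every list.

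At least 1 OHT list had a peak in 82 sites (18.4%), beside 67.0% of all regions. All regions include those formed by OHT peaks themselves, which raises that share. Among regions with no (-)-Nutlin or EtOH peak, the share was 16.3% for those in 2 doxorubicin lists and 15.7% for those in 1. Of the 82, 41 had a peak in 1 OHT list, 22 in 2, 14 in 3 and 5 in 4. In 43 sites the OHT peaks came from tumours 1 or 2 only, in 13 from tumours 3 or 4 only and in 26 from both pairs. As shares these were 9.64%, 2.91% and 5.83% of the sites, beside 5.15%, 38.0% and 23.9% of all regions. For the regions of both drugs the numbers were 395, 359 and 1622. An OHT peak was counted at a site only if it was joined to the same region, so short distances are in part built in. Midpoints of OHT peaks at the sites lay at a median of 33.2 bp from the mean doxorubicin midpoint in tumour 1, 30.7 bp in tumour 2, 47.0 bp in tumour 3 and 89.5 bp in tumour 4. For the regions of both drugs these medians were 44.3, 45.2, 40.8 and 40.8 bp. In tumours 1, 2, 3 and 4, 58 of 60, 34 of 37, 32 of 38 and 7 of 12 lay within 100 bp. In tumours 1 and 2 the sites that were called had median widths of 477.5 and 546 bp, at percentiles 58.0 and 71.9 of those lists. In tumours 3 and 4 the medians of 434.5 and 360.5 bp were at percentiles 36.0 and 21.7.

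The 5 sites with a peak in all 4 OHT lists (1.12%, beside 8.61% of all regions) had none in the 12 control and (+)-Nutlin lists. By width after doxorubicin, the first lay on chromosome 4 from 135645586 to 135646441, with OHT peaks of 781, 671, 701 and 474 bp in tumours 1 to 4 and doxorubicin peaks of 352, 627 and 810 bp. It is also 1 of the 6 sites near a (-)-Nutlin peak, at 326 bp in tumour 5 and 338 bp in tumour 6, while in tumour 7 the nearest was 53065 bp away. The site on chromosome 1 from 129138925 to 129139877 had OHT peaks of 483, 622, 813 and 623 bp and lay 22063 bp from any (-)-Nutlin peak. Another on chromosome 1, from 154446038 to 154446865, had OHT peaks of 605, 598, 688 and 304 bp, and its (-)-Nutlin distance was 69671 bp. On chromosome 4 from 132983193 to 132983831, OHT peaks measured 625, 592, 598 and 492 bp and doxorubicin peaks 483, 392 and 589 bp. The last, on chromosome 4 from 59456809 to 59457572, had OHT peaks of 598, 585, 601 and 320 bp, and a (-)-Nutlin peak 2160 bp away. In 4 of the 5 sites the OHT peak of tumour 4 was the narrowest of the 4.

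The number of (-)-Nutlin lists with a peak went along with OHT calls. Among regions in all 3 doxorubicin lists, OHT tumour 1 had a peak in 13.5%, 21.6%, 35.5% and 64.1% of those with 0, 1, 2 and 3 (-)-Nutlin lists. For tumour 4 the same shares were 2.69%, 11.3%, 49.0% and 58.4%. In all 4 OHT lists the share was higher at each step of this series. Seen from the other side, among regions in all 3 (-)-Nutlin lists, the OHT lists split. Those of tumours 3 and 4 had a peak in 83.8% and 89.2% of the 37 regions with no doxorubicin peak, and in 97.5% and 97.2% of the 1338 regions with 2 doxorubicin lists. Those of tumours 1 and 2 had a peak in 10.8% and 13.5% of the 37 and in 26.5% and 28.5% of the 1338. Sites without (-)-Nutlin peaks were thus below the share of all regions in every OHT list. The 37 regions without doxorubicin peaks were above it in OHT tumours 3 and 4 and below it in 1 and 2, and the 1338 were above it in all 4. Of these 1338 regions, the doxorubicin list of tumour 6 had a peak in 95, against 1321 for tumour 5 and 1260 for tumour 7.

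**Figure D4:**
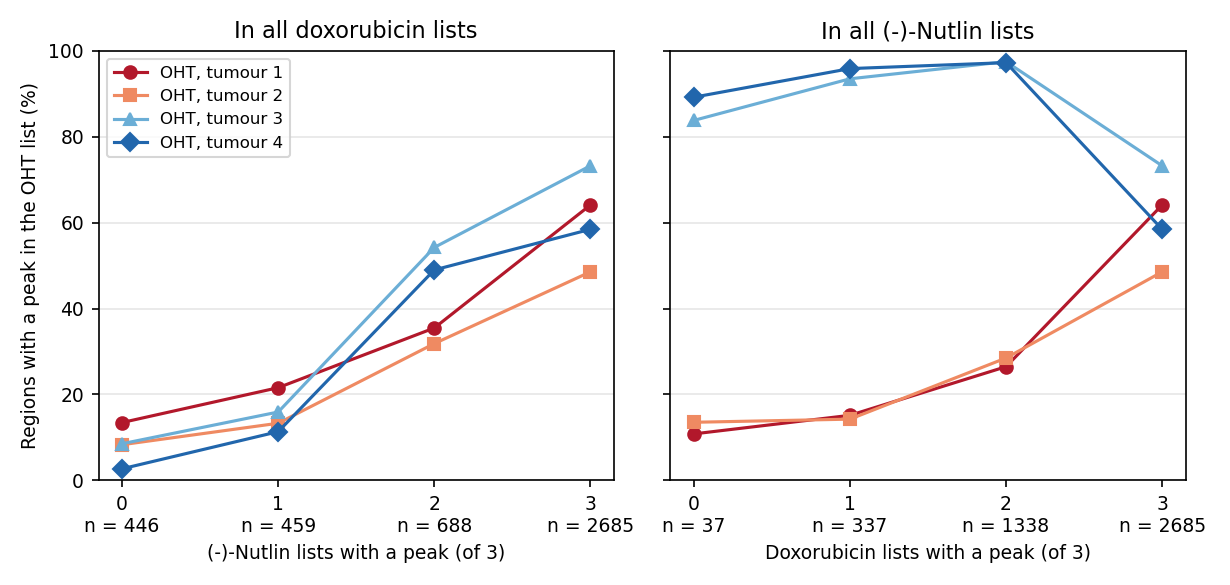
Share of regions with a peak in each OHT list (y axis, %) by the number of (-)-Nutlin lists with a peak, among regions in all 3 doxorubicin lists (left), and by the number of doxorubicin lists, among regions in all 3 (-)-Nutlin lists (right); lines are KI tumours 1 to 4. At 0 (-)-Nutlin lists the values are 2.69% to 13.5%, and at 0 doxorubicin lists tumours 3 and 4 stand at 83.8% and 89.2%.

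In the control lists of Arf-/- tumours few of the sites were called, and most of those calls came from tumour 5. In untreated cells tumours 5, 6 and 7 had a peak in 24, 4 and 1 of the 446 sites, which is 5.38%, 0.897% and 0.224%, beside 14.1%, 7.99% and 2.46% of all regions. After water the numbers were 33, 1 and 1 (7.40%, 0.224% and 0.224%), beside 11.6%, 6.2% and 2.91% of all regions. After DMSO they were 13, 1 and 1 (2.91%, 0.224% and 0.224%), beside 8.91%, 3.42% and 3.04% of all regions. After (+)-Nutlin they were 13, 0 and 1 (2.91%, 0% and 0.224%), beside 12.3%, 4.26% and 2.56% of all regions. Tumour 5 was the highest in each group, for the sites and for all regions, and its lists are of wide peaks, those of tumours 6 and 7 of narrow ones. Over the 12 lists the share had a median of 0.224%, where the regions of both drugs had 25.2%, with ranges of 0% to 7.40% and 13.1% to 58.0%. The water list of tumour 5 had more of the sites than the longer untreated list of that tumour, with 33 of 2206 peaks against 24 of 2696. (+)-Nutlin and its solvent DMSO each had 13 in tumour 5.

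Of the 446 sites, 45 (10.1%, beside 21.5% of all regions) had a peak in at least 1 of the 12 lists. All regions include those formed by peaks of these lists themselves. Among regions with no (-)-Nutlin or EtOH peak, the share was lower than at the sites. It was 6.75% for those in 2 doxorubicin lists and 0.358% for those in 1. In 41 of the 45 the peaks came from tumour 5 alone, beside 1995 of 4078 among all regions. All 4 of these tumour 5 lists had a peak in 6 sites (1.35%), beside 6.76% of all regions and 37.5% of the regions of both drugs. For the regions of both drugs, 2007 of 2685 (74.7%) had such a peak. Of the 446 sites, 4 (0.897%) had both OHT and control peaks, 78 (17.5%) OHT peaks only, 41 (9.19%) control peaks only and 323 (72.4%) neither. Over all regions these shares were 18.2%, 48.8%, 3.34% and 29.7%.

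The site with most control calls lay on chromosome 8 from 124364102 to 124364579, with a peak in 8 of the 12 lists and in no OHT list. Its control peaks measured 55 to 165 bp in tumours 6 and 7 and 394 bp after water in tumour 5. Its doxorubicin peaks measured 354, 331 and 470 bp, at a mean percentile of 17.7, and (-)-Nutlin peaks lay 313, 310 and 205 bp off in tumours 5, 6 and 7. A site on chromosome 8 (73881995 to 73882997) and 1 on chromosome 19 (53289914 to 53290888) each had a peak in 5 control lists, the 4 of tumour 5 and untreated tumour 6. Their tumour 5 control peaks of 379 to 615 bp and 381 to 513 bp were set against doxorubicin peaks of 423 and 342 bp in that tumour. On chromosome 1 from 185684900 to 185685744 the tumour 5 controls had peaks of 357 to 517 bp. On chromosome 11 from 97340183 to 97341205 they had peaks of 535 to 655 bp, each wider than the 356 bp of tumour 5 after doxorubicin, and OHT tumour 1 had 1 of 555 bp. At these 4 sites p53 binding was called in tumour 5 in untreated cells and after doxorubicin, and was not called after (-)-Nutlin.

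**Figure D5:**
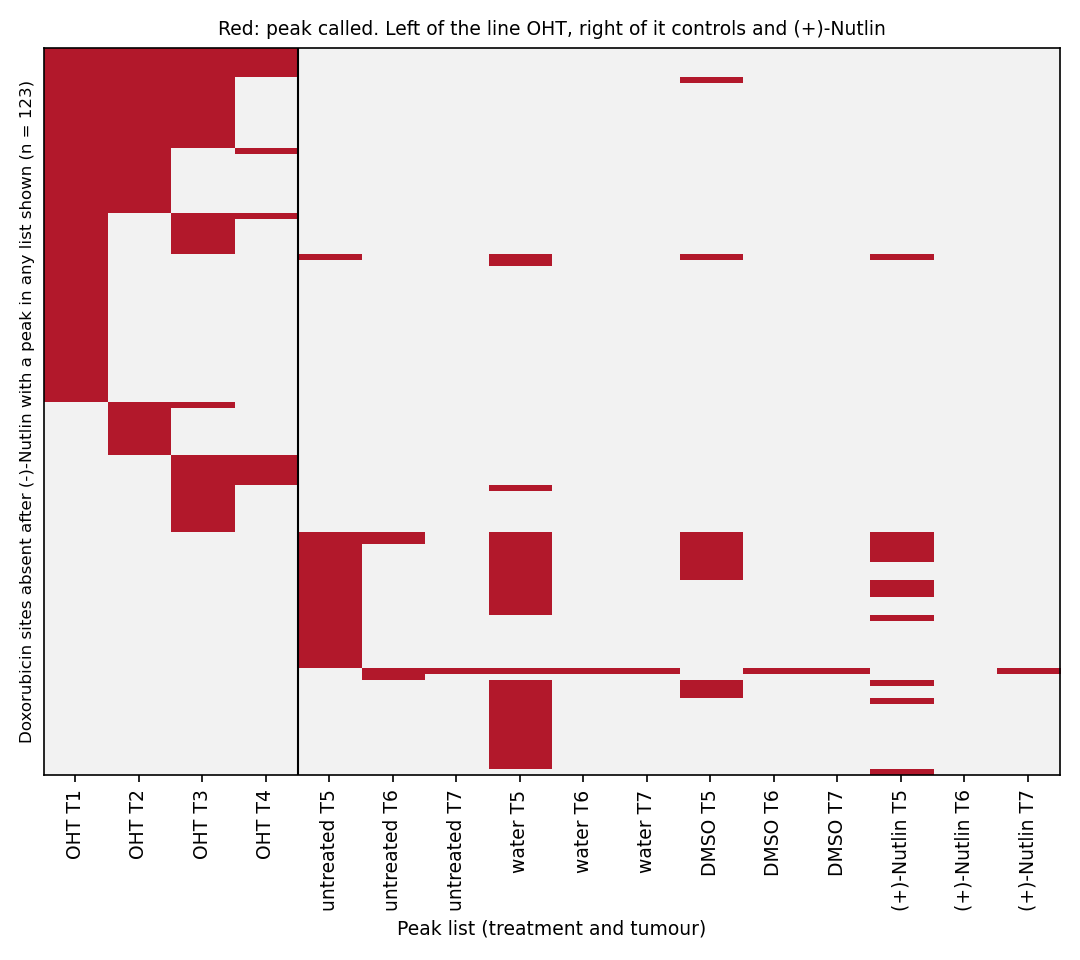
Calls (red) in the 4 OHT lists and the 12 control and (+)-Nutlin lists (columns, by treatment and tumour) for the 123 of 446 sites with a peak in any of them (rows). Both kinds of call fall in the same row for 4 sites (0.897% of the 446, beside 18.2% of all regions), and 41 of the 45 sites with control calls have them in tumour 5 columns alone.

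One test across all regions was possible on lists that had no part in the choice, the 4 OHT lists against the 12 control and (+)-Nutlin lists. Of 13309 regions with a peak in any of the 16, two-sided Fisher's exact tests with Benjamini-Hochberg adjustment called 2337 (17.6%) more often in OHT lists and 27 (0.203%) less often. Among the 446 sites 123 could be tested, of which 18 were called more often in OHT lists (14.6% of those tested) and 0 less often. Among tested regions this share is near that of all regions, while over the whole sets it was 4.04% of the 446 sites and 12.3% of all 18927 regions, since most of the sites had no peak in any of the 16 lists. The 18 comprise the 5 sites in all 4 OHT lists and no control (adjusted p = 0.0137 by Fisher's exact test) and 13 in 3 OHT lists and no control (adjusted p = 0.0434). The site on chromosome 8 with 8 control calls and no OHT call had an adjusted p of 0.142 in the same exact test. The 12 lists come from 3 tumours, so these p-values are too small. With each tumour counted once, Fisher's exact test called 0 of 13309 regions, with 565 at an unadjusted p under 0.05. The smallest p of that design is 0.0286, so the adjusted count says little. Against the wide lists of tumour 5 alone it called 0 of 13205, with 803 at that level and the same smallest p. Genotype, time and agent differ between the 2 sets of tumours and cannot be told apart. Leaving out 1 tumour, from 1 to 7, gave 1237, 1107, 541, 644, 920, 624 and 534 regions in all, of which 5, 6, 6, 16, 5, 5 and 5 were doxorubicin sites absent after (-)-Nutlin. The regions tested then numbered 12982, 13159, 11986, 11807, 12925, 13266 and 13271. Sites among the tested regions numbered 100, 115, 116, 123, 86, 122 and 123.

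The sites were spread over the genome. They lay on all 19 autosomes and on X, between 7 on X and 42 on chromosome 1, and covered 323.3 kb in all. As a share of the regions in all 3 doxorubicin lists, they ranged from 6.84% on chromosome 17 (13 of 190) to 16.4% on chromosome 16 (25 of 152). The largest numbers, on chromosomes 1, 2 and 11, were 42, 39 and 33. The merged regions were 395 to 1730 bp long with a median of 696 bp, against 965 bp for the regions of both drugs. The median distance from a site to the next site was 1.52 Mb, and 22 of the 446 lay within 100 kb of another. The rule needs the 3 doxorubicin peaks of a site in 1 joined region, so short distances between their midpoints are in part built in. The 3 doxorubicin midpoints of a site spanned a median of 62.2 bp, and 339 of 446 sites (76.0%) had all 3 within 100 bp. In the regions of both drugs, which are wider, the median span was 81.5 bp and 62.5% had all 3 midpoints that close.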

How the data were processed

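Peak lists of 26 p53 ChIP-seq libraries were used, and 7 input libraries were left out. For the authors' processing, BWA 0.6.2, SAMtools and build mm9 are named per the submitters' processing notes. Which peak caller they ran was not given in the sources used here. As deposited, each list holds start and end in bp for 1 library, with no other measured value. Groups and tumour numbers came from the sample titles. Regions, calls, widths and distances were computed with pandas 2.3.3 and NumPy 2.4.6, and Fisher's exact tests with SciPy 1.17.1, at an adjusted p under 0.05; the code was tested on simulated lists. The sites, comparison sets and lists were chosen with earlier results of these data known. Named regions were the 10 sites widest by mean percentile in the doxorubicin lists, the 5 widest with peaks in all 4 OHT lists, the 5 with most control calls and the 3 narrowest. Gene lists were not used, for want of an annotation on mm9. Depth per library is unknown, so no interval for counting error is given.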

Additional observations from a re-analysis of the deposited data

How the results depend on the processing

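The 446 sites became 444 with peaks within 200 bp merged, 449 with 200 bp around each midpoint, 470 when peaks narrower than 457 bp, the median, were dropped and 440 without sites near a (-)-Nutlin peak. The number was again 446 with 50% overlap, which by construction cannot change it, and with fewer lists merged. It was 224 with the 6 lists cut to the shortest and 2354 when 1 list of each drug could differ, and leaving out an Arf tumour gave 545 to 1567. The mean share of sites in OHT lists was 6.13% to 18.3% with 1 tumour left out. The value of 18.3% came without tumour 6, and the cause was not tested. The count of regions called more often in OHT lists fell to 217 among the wider peaks. It was 0 at an adjusted p under 0.01, where 2867 regions had an unadjusted p under 0.05 by Fisher's exact test. The smallest adjusted p of any region in that exact test was 0.0137, so this 0 says little. The count was also 0 with each tumour counted once and 0 among wide lists alone, where the smallest possible p is 0.0286. With 1 tumour left out it was 534 to 1237. Chosen after seeing the data were wide lists alone, leaving out OHT lists and equal list length for the OHT share, and every alternative for the reverse count. Motif and gene distance settings were not run, as no genome or annotation on mm9 was at hand. No paired analysis was possible because the doxorubicin and (-)-Nutlin lists chose the sites and carry no test, and OHT and control lists share no tumour.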

Other observations

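Close neighbours among the 446 sites were few. Within 10 kb of each other lay 3 pairs, which were singled out after their values were seen. On chromosome 8, the second widest site, from 82443884 to 82445105, had a neighbour from 82443048 to 82443707, 176 bp away, and neither had a peak in an OHT or control list. On chromosome 7, sites from 28165367 to 28166214 and from 28166527 to 28167301 lay 312 bp apart, and the former had a peak in 2 control lists. On chromosome 1, the site from 36951169 to 36952090 was called after doxorubicin alone, while its neighbour 8307 bp away, from 36960398 to 36961006, also had a peak in 3 OHT lists.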
